A study of Mus musculus with 16 samples.

Results

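The p38 pathway carries stress and cytokine signals through a chain of kinases, and the gene set described here is a list of 44 genes that make up that chain: 4 p38 kinases, 2 MAP kinase kinases, 13 MAP3 kinases, 6 adaptors and activators, 7 downstream kinases, 4 RNA-binding proteins, 4 transcription factors and 4 phosphatases. They were picked by gene symbol. All 44 were found among the 20267 genes in the table, and 42 reached at least 1 CPM (reads scaled to the total of each library) in at least 4 of the 16 libraries and could be tested. Mapk11 and Mapk13 did not. RNA was sequenced from CD11b+/P2ry12+ microglia sorted by flow cytometry from the brains of 11-month-old C57BL/6J mice, about 10000 cells per mouse and 4 mice per group.

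The first group, AD p38KO, carried the APPswe/PS1dE9 transgenes, which drive amyloid plaque formation, together with Cx3cr1-creERT2 and the floxed p38α gene (p38fl/fl). AD p38+/+ mice carried APPswe/PS1dE9 and p38fl/fl without Cre. WT p38KO mice carried Cx3cr1-creERT2 and p38fl/fl without the transgenes, and WT p38+/+ mice carried p38fl/fl alone, so the controls were floxed as well. All mice ate tamoxifen diet (400 ppm for 4 weeks, begun at 5 months of age). Cx3cr1 drives the Cre enzyme in microglia and in other Cx3cr1-expressing macrophages, and no group carried Cre without the floxed p38α gene, so effects of Cre or of Cx3cr1 heterozygosity cannot be told apart from loss of p38α.

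In outline, MAP3 kinases phosphorylate the MAP kinase kinases MKK3 and MKK6, which phosphorylate a p38 kinase. An active p38 kinase then phosphorylates further kinases, among them MK2, the MNKs and the MSKs, and transcription factors such as ATF2, while phosphatases switch it off. In microglia and other macrophages p38α is best known for promoting the synthesis of TNF and interleukins, in large part through MK2 and the proteins that bind AU-rich elements in messenger RNAs. The pathway is switched by phosphorylation, which RNA levels do not show.

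The libraries matched their labelled cell type. The 6 microglia markers summed to 51024 to 63623 CPM, against 0.271 to 3.83 CPM for 5 neuronal markers, 149 to 276 CPM for 4 astrocyte markers and at most 1.20 CPM for lymphocyte markers. Markers of border-associated macrophages summed to 7.78 to 82.0 CPM and those of monocytes and granulocytes to 2.10 to 23.1 CPM. Oligodendrocyte markers summed to 105 to 139 CPM, and endothelial and mural markers to 16.8 to 47.6 CPM. Depth was 12.3 to 16.4 reads per CPM, so that a floor of 3 reads lay at 0.183 to 0.244 CPM, counting error only. AD p38KO mice 1 and 4 stood apart on the first principal components, and 15472 to 16842 genes were detected in AD p38KO libraries, against 17219 to 18044 in AD p38+/+ libraries. Hemoglobin transcripts ran from 0 to 261 CPM in AD p38KO and from 0.143 to 228 CPM in WT p38KO libraries, against at most 9.69 CPM in AD p38+/+ and 1.62 CPM in WT p38+/+ libraries. The part of the hemoglobin transcripts in the results below was not tested, and for several members the fold change without AD p38KO mice 1 and 4 is given as well.

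Most of the chain was expressed at the RNA level in these microglia, and its members spanned a wide range. Levels of different genes are compared here per kb of transcript length, as the mean of all 16 libraries. The highest were Zfp36l2 at 111.9 CPM per kb, Mknk1 at 100.5, Elavl1 at 73.7, Mapkapk2 at 54.6, Map3k3 at 53.4 and Mapk14 at 51.1. Zfp36l2 and Elavl1 encode proteins that bind AU-rich elements, ZFP36L2 hastening the decay of the messenger RNA and HuR (Elavl1) stabilizing it. Among the p38 kinases, Mapk14 (p38α) stood far above Mapk12 (p38γ) at 1.402, Mapk11 (p38β) at 0.158 and Mapk13 (p38δ) at 0.0290 CPM per kb. Map2k3 (MKK3) was at 21.8 CPM per kb and Map2k6 (MKK6) at 5.77. Of the phosphatase genes, Ppm1d was at 10.7 CPM per kb, while Dusp16 at 3.15, Dusp10 at 1.06 and Dusp8 at 0.381 were low. Each is the sum over a gene's transcripts of CPM divided by transcript length, so it depends on how reads were shared among transcripts.

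**Figure D1:**
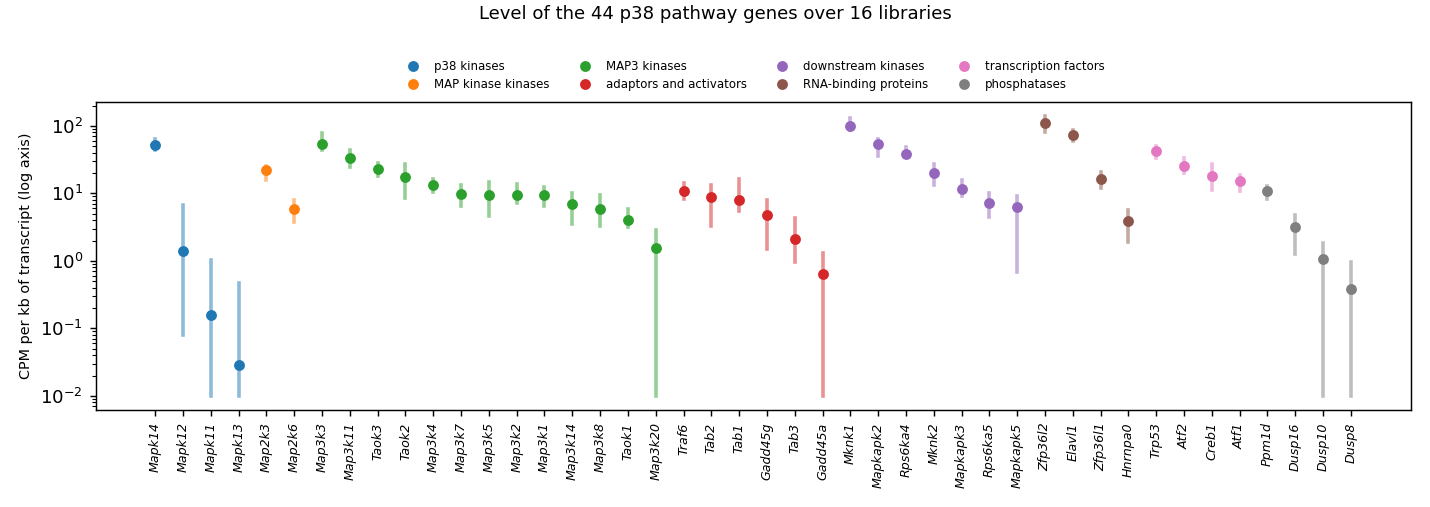
Level of each of the 44 genes, in CPM per kb of transcript on a log axis, grouped by role. Points are means of the 16 libraries and lines run from the lowest to the highest library, with values of 0 drawn at the foot of the axis. Mapk14 is the only p38 kinase among the highly expressed genes, and the lines of Mapk11 and Mapk13 reach 0.

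At the gene level, none of the 42 tested members was called changed (limma, adjusted p under 0.05) by the p38α knockout, by the APP/PS1 transgenes or by their interaction. Few genes of any kind were called. In AD mice, p38KO against p38+/+, 0 of 42 members were called against 0.0503% of all 13912 genes tested, and at an unadjusted p under 0.05 there were 4 members (9.52%) against 6.99% of all genes. In WT mice, p38KO against p38+/+, 0 of 42 were called against 0.00719% of all genes, and 0 against 3.53% had an unadjusted p under 0.05. For the transgenes, 0 of 42 were called in AD p38KO against WT p38KO mice (0.323% of all genes) and 0 of 42 in AD p38+/+ against WT p38+/+ mice (0.359% of all genes), with 5 members (11.9%, against 9.56% of all genes) and 2 members (4.76%, against 7.11%) at an unadjusted p under 0.05. Over both backgrounds, the knockout had 0 of 42 called (0.0791% of all genes) and 5 (11.9%, against 5.9%) at an unadjusted p under 0.05, and the transgenes 0 of 42 (1.03%) and 5 (11.9%, against 12%). The interaction of knockout and transgenes had 0 of 42 called (0.0% of all genes), with 2 members (4.76%) at an unadjusted p under 0.05 against 3.92% of all genes. The members' shares lay near those of all genes except for the knockout over both backgrounds, where the 5 were Mapk12, Map3k1, Map3k5, Map3k7 and Hnrnpa0.

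The intervals say how much change these data could have missed. For the knockout, the 95% interval of the fold change stayed within a doubling in either direction for 33 of 42 members in AD mice and for 34 of 42 in WT mice. The widest in AD mice belonged to Map3k20, Dusp8 and Mapk12, each at or under 1.53 CPM per kb. The median log2 fold change of the members was -0.04 in AD p38KO over AD p38+/+ mice, against -0.02 for all genes, and 0.04 in WT p38KO over WT p38+/+ mice, against 0.02 for all genes.

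**Figure D2:**
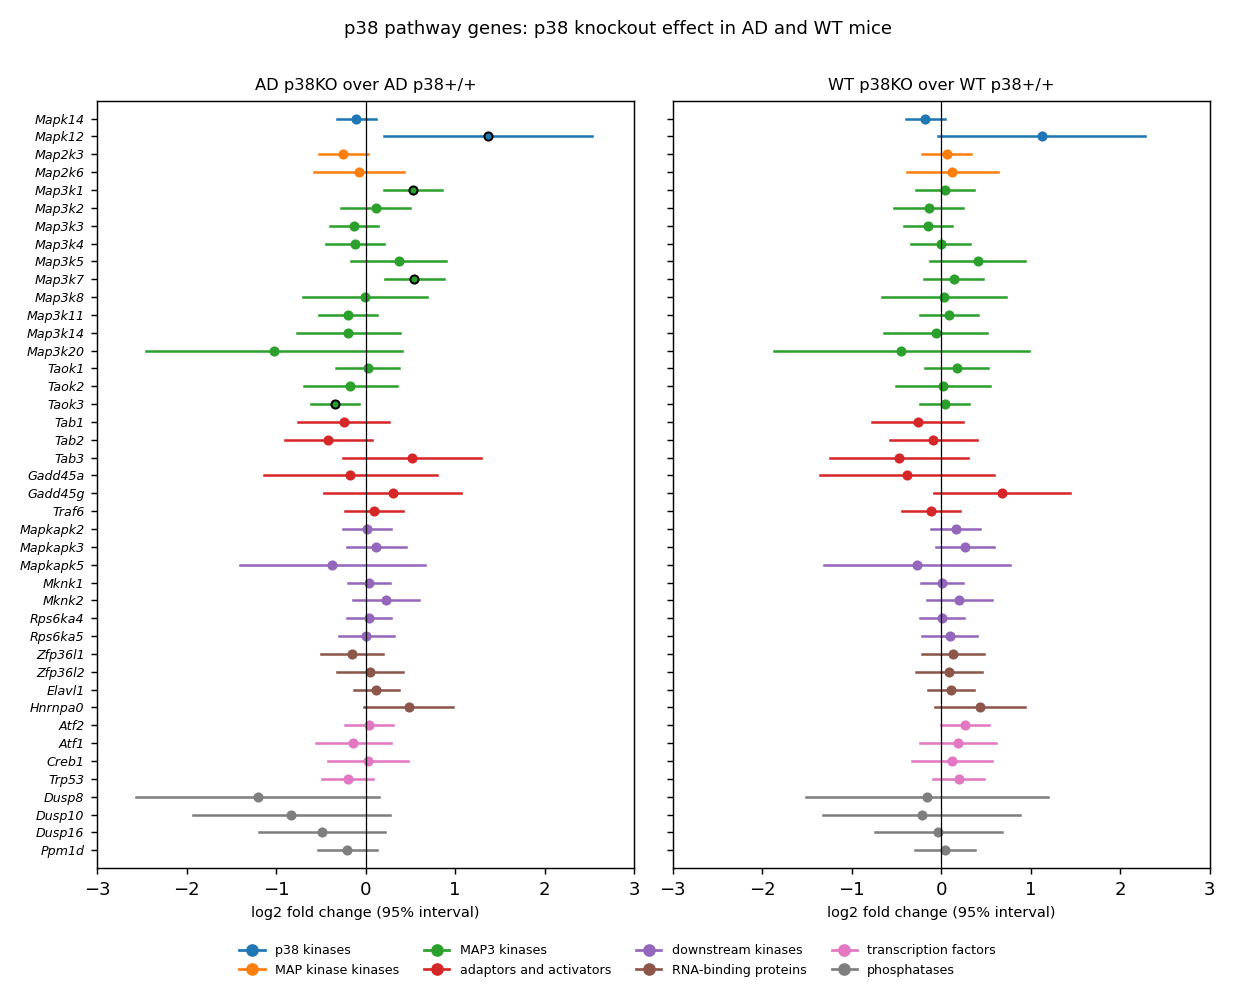
Log2 fold change of the 42 tested genes for AD p38KO over AD p38+/+ mice (left) and WT p38KO over WT p38+/+ mice (right), with 4 mice per group. Points are limma estimates on log2(CPM + 0.5), lines are 95% intervals, colors mark the role, and black rims mark an unadjusted p under 0.05; 0 genes passed after adjustment. Rimmed points in AD mice are Map3k1, Map3k7, Mapk12 and Taok3, and there is none in WT mice.

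Mapk14 is the gene the knockout targets. It lies on the plus strand of chromosome 17 (ENSMUSG00000053436, chr17:28691329-28748406, GRCm38), and the floxed exon is its first, 514 bases long (chr17:28691342-28691855). The gene total was 142, 157, 166 and 145 CPM in AD p38KO mice, against 152, 173, 162 and 169 CPM in AD p38+/+ mice. It was 138, 169, 168 and 160.1 CPM in WT p38KO mice, against 166, 210.2, 183 and 162 CPM in WT p38+/+ mice. The groups overlapped in both backgrounds, and the log2 fold changes were -0.11 in AD and -0.18 in WT mice (limma, adjusted p = 0.909 and 1.0).

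The transcripts of Mapk14 did show it. Of the 7 in the table, 5 hold exon 1 (3 whole and 2 from chr17:28691445 on, with its coding part) and 2 do not. The sum of those with exon 1 was 8.53 ± 2.69 CPM in AD p38KO mice, against 89.0 ± 1.32 CPM in AD p38+/+ mice, and was 9.01 ± 1.60 CPM in WT p38KO mice, against 91.7 ± 21.02 CPM in WT p38+/+ mice (mean ± SD, n = 4 each, exact permutation test, two-sided, p = 0.0286 in both backgrounds, the smallest p that 4 against 4 mice allow). Every p38KO mouse lay below every p38+/+ mouse. As a share of all Mapk14, transcripts with exon 1 made up 5.52 ± 1.36% in AD p38KO and 5.71 ± 1.11% in WT p38KO mice, against 54.4 ± 3.51% in AD p38+/+ and 50.5 ± 7.78% in WT p38+/+ mice. The sum without exon 1 went the other way, at 144 ± 8.63 CPM in AD p38KO against 74.98 ± 9.78 CPM in AD p38+/+ mice, and at 149.7 ± 14.4 CPM in WT p38KO against 88.5 ± 11.9 CPM in WT p38+/+ mice (exact permutation test, p = 0.0286 in both). Nearly all of it was ENSMUST00000114752, whose own first exon (chr17:28692568-28692682) starts 712 bases past the end of exon 1.

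Exon 1 holds the start codon of the full-length protein, and its coding part is shown for that reason, with the start codon in capitals. In p38 kinases this stretch encodes the start of the kinase domain with the glycine-rich loop that holds ATP. ENSMUST00000114752 has no exon 1, and its annotated reading frame begins further downstream, at codon 78 of the full frame of 360 codons and in the same frame, leaving 283 codons. The first 60 bases of that shorter frame are shown beside it, with their start codon in capitals. Both were assembled from the transcripts and annotation of GENCODE M21. Whether protein is made from the shorter frame was not measured.
Mapk14 exon 1, coding part (chr17:28691740-28691855, plus strand): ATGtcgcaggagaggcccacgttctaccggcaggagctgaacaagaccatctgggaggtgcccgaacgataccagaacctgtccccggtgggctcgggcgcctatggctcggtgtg
Start of the shorter frame in ENSMUST00000114752 (from chr17:28713889, plus strand): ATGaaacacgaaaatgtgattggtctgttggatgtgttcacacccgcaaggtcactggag

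Among the member transcripts, 120 were tested. In AD p38KO against AD p38+/+ mice 2 of 120 were called, against 0.032% of all 34322 transcripts, in WT p38KO against WT p38+/+ mice 1 of 120, against 0.0146%, and over both backgrounds 4 of 120, against 0.166%. All of them were transcripts of Mapk14. ENSMUST00000062694, which holds all of exon 1 and was the most abundant transcript with it in p38+/+ mice, was at 0.0931, 0.0574, 0.112 and 0.248 CPM in AD p38KO against 71.0, 68.2, 65.1 and 58.5 CPM in AD p38+/+ mice, and at 0.0794, 0.214, 0.0589 and 0.0891 CPM in WT p38KO against 66.0, 82.6, 78.7 and 47.1 CPM in WT p38+/+ mice. The p38KO values were near or below the floor of 3 reads, so that the fitted log2 fold changes of -6.73 in AD and -6.80 in WT mice (limma, adjusted p = 2.3e-11 and 1.9e-11) vary with the constant that is added to the CPM. ENSMUST00000114752, which has no exon 1, was 135, 147, 154 and 138 CPM in AD p38KO against 61.3, 82.7, 73.7 and 80.2 CPM in AD p38+/+ mice, and 129.6, 159.7, 160.2 and 149 CPM in WT p38KO against 74.5, 97.2, 82.2 and 98.7 CPM in WT p38+/+ mice. The groups did not overlap in either background. Its log2 fold change was 0.95 in AD p38KO mice (limma, adjusted p = 0.00415) and 0.76 in WT p38KO mice (limma, adjusted p = 0.0589). The mean gene total was not higher, at 152 CPM in AD p38KO against 164 CPM in AD p38+/+ mice. In WT mice it was 159 CPM in p38KO against 180 CPM in p38+/+. How far the gain of ENSMUST00000114752 reflects the assignment to it of Mapk14 reads that lack exon 1 was not tested. For the transgenes over both p38 genotypes, 0 of 120 were called (0.379% of all transcripts), with 11 at an unadjusted p under 0.05 (9.17%, against 9.13% of all transcripts).

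**Figure D3:**
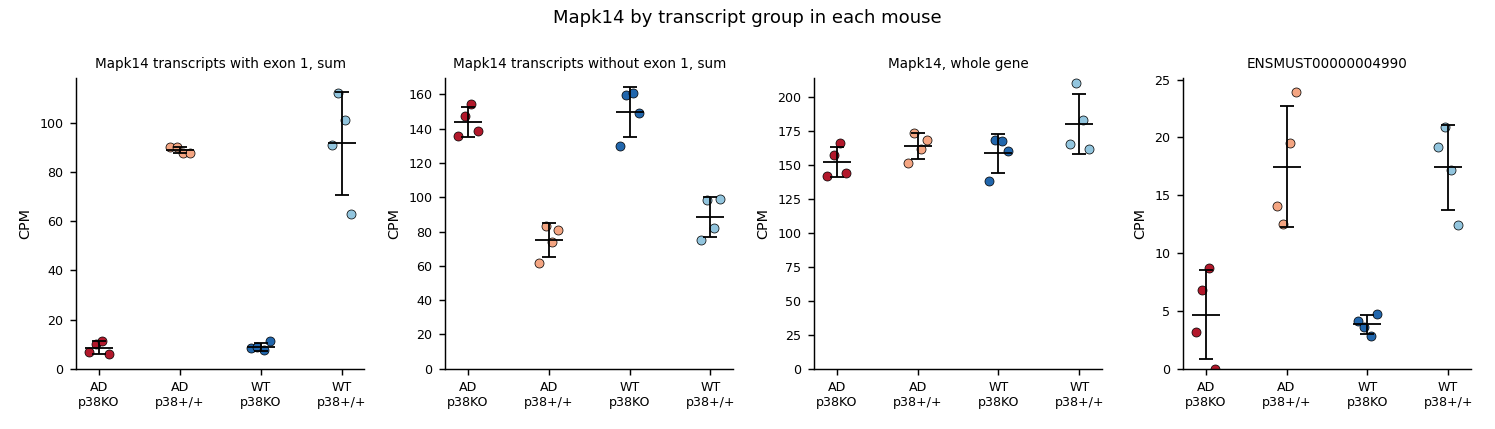
Mapk14 in each mouse, in CPM, as the sum of transcripts with exon 1, the sum of those without it, the whole gene, and ENSMUST00000004990 alone. Points are mice, long dashes are means of 4 and bars are SD. The p38KO points lie below all p38+/+ points for the sum with exon 1 and for ENSMUST00000004990 and above them for the sum without exon 1, while the groups overlap for the whole gene.

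Mapk14 also has a pair of alternative exons, here called form A and form B, of 80 bases each, which occupy the place of exon 9 and change part of the kinase domain. They match at 39 of 80 bases (48.75%). They are shown because form B occurs in only 1 transcript of the table, ENSMUST00000004990, which also holds exon 1, so that transcript stands for the whole of form B in these data. Capitals mark the bases at which the forms differ.
Form A (chr17:28737011-28737090, plus strand): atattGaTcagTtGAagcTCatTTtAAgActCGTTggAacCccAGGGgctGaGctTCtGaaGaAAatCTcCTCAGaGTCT
Form B (chr17:28740680-28740759, plus strand): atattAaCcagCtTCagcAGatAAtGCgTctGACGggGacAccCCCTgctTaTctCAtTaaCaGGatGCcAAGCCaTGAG

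The transcript with form B was 3.21, 6.80, 8.74 and 0.00447 CPM in AD p38KO mice, against 14.05, 12.5, 19.5 and 23.9 CPM in AD p38+/+ mice. It was 4.13, 3.62, 2.80 and 4.78 CPM in WT p38KO mice, against 19.1, 20.9, 17.2 and 12.4 CPM in WT p38+/+ mice. The p38KO and p38+/+ mice did not overlap in either background (exact permutation test, p = 0.0286 in both), but 7 of the 8 p38KO mice kept at least 2.80 CPM and AD p38KO mouse 4 had almost none. Its share of Mapk14 was 2.96 ± 2.34% in AD p38KO and 2.45 ± 0.654% in WT p38KO mice, against 10.7 ± 3.05% in AD p38+/+ and 9.64 ± 1.59% in WT p38+/+ mice. Over both backgrounds it fell by 2.21 on the log2 scale (limma, adjusted p = 0.0484), a call that was lost when any 1 of 13 libraries was left out, with adjusted p up to 0.120. No transcript in the table joins form B to a start without exon 1, so that reads of form B had no other transcript to be assigned to. Whether the CPM left in p38KO mice came from molecules with exon 1 was not tested. ENSMUST00000114754, which also holds exon 1, was 0.665, 0.639, 0.378 and 0.440 CPM in AD p38KO against 2.38, 5.32, 1.63 and 2.66 CPM in AD p38+/+ mice, and 0.83, 0.625, 0.796 and 1.20 CPM in WT p38KO against 3.71, 5.80, 3.64 and 1.58 CPM in WT p38+/+ mice. It fell over both backgrounds by 1.60 (limma, adjusted p = 0.0242), and adjusted p ran up to 0.0649 when WT p38KO mouse 1 or 3, WT p38+/+ mouse 1 or 3, or AD p38+/+ mouse 2 was left out. ENSMUST00000233811 holds 411 of the 514 bases of exon 1, from chr17:28691445 on, which include its whole coding part. It was 2.73, 2.62, 1.92 and 3.81 CPM in AD p38KO against 1.76, 3.82, 1.04 and 2.36 CPM in AD p38+/+ mice, and 3.40, 4.12, 3.26 and 4.92 CPM in WT p38KO against 1.79, 2.14, 1.29 and 1.17 CPM in WT p38+/+ mice. Its mean was higher in p38KO than in p38+/+ mice in both backgrounds, with log2 fold changes of 0.32 in AD and 1.09 in WT mice (limma, adjusted p = 0.887 and 0.854).

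The other p38 kinases are encoded in pairs. Mapk13 lies 20890 bases from Mapk14 on chromosome 17, and Mapk11 and Mapk12 lie 1782 bases apart on chromosome 15. Mapk12 (p38γ, best known from skeletal muscle) was 2.48, 3.34, 0.621 and 11.4 CPM in AD p38KO mice, against 1.20, 0.758, 1.76 and 0.213 CPM in AD p38+/+ mice. It was 1.30, 3.61, 3.60 and 2.58 CPM in WT p38KO mice, against 0.942, 1.095, 0.683 and 1.03 CPM in WT p38+/+ mice. The WT groups did not overlap, while in AD mice the groups did and AD p38KO mouse 4 alone reached 11.4 CPM. Without that mouse the log2 fold change of Mapk12 in AD mice was 0.78 (limma, adjusted p = 0.818), and without mice 1 and 4 it was 0.61 (adjusted p = 0.992). The log2 fold changes were 1.37 in AD and 1.12 in WT mice (limma, adjusted p = 0.668 and 1.0), and 1.24 over both backgrounds (limma, adjusted p = 0.651). The 95% interval of that last value ran from 0.43 to 2.06.
Mapk11 reached 1 CPM in 2 libraries, with 2.93 CPM in AD p38KO mouse 1 and 1.09 CPM in WT p38+/+ mouse 4. Mapk13 reached it in 1 library, with 1.91 CPM in AD p38KO mouse 2. It was listed at 0 in 13 of the 16 libraries, which include p38KO mice as well as all 8 p38+/+ mice. Neither gene was tested.

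MKK3 and MKK6 are the kinases that act directly on p38, and neither gene was called. Map2k3 was 33.5, 44.3, 46.3 and 37.7 CPM in AD p38KO mice, against 45.1, 46.7, 46.5 and 53.1 CPM in AD p38+/+ mice, with overlap and a log2 fold change of -0.25 (limma, adjusted p = 0.752). It was 52.9, 53.5, 48.5 and 45.7 CPM in WT p38KO mice, against 43.4, 53.4, 44.3 and 51.7 CPM in WT p38+/+ mice (log2 fold change 0.06). Against WT p38KO mice, AD p38KO mice had a log2 fold change of -0.32 (limma, adjusted p = 0.446), with mouse 1 the lowest, and without AD p38KO mice 1 and 4 that of Map2k3 was -0.14 (adjusted p = 0.911). Map2k6 was 11.95, 10.3, 9.63 and 14.3 CPM in AD p38KO, against 15.8, 9.38, 13.5 and 10.6 CPM in AD p38+/+ mice, and 12.1, 10.3, 15.6 and 11.4 CPM in WT p38KO, against 10.8, 16.6, 11.01 and 7.90 CPM in WT p38+/+ mice, with log2 fold changes under the knockout of -0.08 (95% interval -0.58 to 0.43) in AD and 0.12 (-0.38 to 0.63) in WT mice.

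Among the 13 MAP3 kinases, 3 had an unadjusted p under 0.05 for the knockout in AD mice, where 6.99% of all genes did, and 0 in WT mice, where 3.53% did. Map3k7 encodes TAK1, which acts downstream of the interleukin-1, Toll-like and TNF receptors. It was 62.9, 47.4, 44.7 and 62.3 CPM in AD p38KO mice, against 36.3, 38.9, 41.0 and 31.3 CPM in AD p38+/+ mice, without overlap (log2 fold change 0.54 ± 0.16 SE, limma, adjusted p = 0.440). The higher pair were mice 1 and 4, which stand apart across all genes, and without both the log2 fold change was 0.32 (limma, adjusted p = 0.919). In WT mice it was 41.7, 44.7, 36.2 and 41.2 CPM in p38KO, against 32.5, 47.0, 32.1 and 38.2 CPM in p38+/+. The interaction, 0.40, did not pass (limma, adjusted p = 1.0).

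Map3k1 encodes MEKK1, which acts on both the JNK and p38 branches. It was 63.8, 68.0, 79.4 and 63.0 CPM in AD p38KO mice, against 44.1, 52.6, 46.6 and 45.5 CPM in AD p38+/+ mice, again without overlap (log2 fold change 0.53 ± 0.15 SE, limma, adjusted p = 0.442). In WT mice it was 66.5, 65.3, 74.0 and 59.97 CPM in p38KO, against 46.6, 79.5, 78.9 and 58.7 CPM in p38+/+. The AD p38+/+ group was thus the low one of the 4, at a mean of 47.2 CPM against 65.9 CPM in WT p38+/+ mice (log2 fold change -0.45, limma, adjusted p = 0.452). Its interaction was 0.49 with an unadjusted p of 0.0383 (limma, adjusted p = 1.0). Without AD p38KO mice 1 and 4 the fold change in AD mice was 0.64 (limma, adjusted p = 0.594).

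Taok3 encodes a kinase of the TAO family, which phosphorylates MKK3 and MKK6. It was 53.9, 47.7, 60.5 and 47.2 CPM in AD p38KO mice, against 74.1, 63.0, 60.9 and 68.3 CPM in AD p38+/+ mice. These groups did not overlap, though the highest of the AD p38KO mice lay only just under the lowest of the AD p38+/+ mice (log2 fold change -0.35, limma, adjusted p = 0.645), and without AD p38KO mice 1 and 4 the fold change was -0.30 (adjusted p = 0.919). In WT mice it was 55.0, 58.8, 62.4 and 65.4 CPM in p38KO, against 54.9, 72.8, 55.7 and 53.5 CPM in p38+/+ (log2 fold change 0.04). Without overlap between the groups were 4 of 42 members in AD p38KO against AD p38+/+ mice (3.34% of all genes) and 1 of 42, Mapk12, in WT p38KO against WT p38+/+ mice (2.72% of all genes).

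Map3k3 (MEKK3) and Map3k11 (MLK3) had the highest CPM of the group. Map3k3 was 136, 156, 141 and 148 CPM in AD p38KO, against 143, 166, 169 and 159 CPM in AD p38+/+ mice, and 159, 148, 182 and 187 CPM in WT p38KO, against 153, 245, 193 and 166 CPM in WT p38+/+ mice. Map3k11 was 103, 122, 96.7 and 108.3 CPM in AD p38KO, against 105.97, 127, 116.4 and 148 CPM in AD p38+/+ mice, and 133, 106.5, 127 and 119.5 CPM in WT p38KO, against 119, 159, 89.3 and 98.97 CPM in WT p38+/+ mice. Both had their top value in WT p38+/+ mouse 2. Map3k2 (MEKK2) was 47.0, 51.6, 62.7 and 73.7 CPM in AD p38KO, against 49.5, 60.9, 57.8 and 47.4 CPM in AD p38+/+ mice, and 67.1, 57.7, 69.4 and 62.1 CPM in WT p38KO, against 98.6, 72.1, 71.1 and 48.8 CPM in WT p38+/+ mice, with a log2 fold change of -0.39 in AD p38+/+ over WT p38+/+ mice (limma, adjusted p = 0.681). The remaining 7 MAP3 kinases include Map3k5 (ASK1, tied to oxidative stress), Map3k8 (TPL2), Map3k14 (NIK, of the noncanonical NF-kappaB pathway) and Map3k20 (ZAK, tied to stalled ribosomes). Their log2 fold changes with the knockout lay between -1.02 (Map3k20) and 0.37 (Map3k5) in AD mice and between -0.45 and 0.41, of the same genes, in WT mice.

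TAB2 and TAB3 bind ubiquitin chains and bring TAK1 to them, TAB1 activates TAK1, and TRAF6 builds the chains. Tab2 was the member with the smallest adjusted p of any gene comparison, and the difference was with the transgenes. It was 13.98, 25.5, 26.3 and 38.6 CPM in AD p38KO mice, against 49.6, 37.1, 33.7 and 44.5 CPM in WT p38KO mice (log2 fold change -0.72, limma, adjusted p = 0.294, and -0.64 with adjusted p = 0.317 without AD p38KO mice 1 and 4). In p38+/+ mice it was 28.2, 33.9, 34.4 and 36.0 CPM in AD p38+/+, against 54.1, 43.4, 35.5 and 42.5 CPM in WT p38+/+ (log2 fold change -0.39, limma, adjusted p = 0.806). The groups overlapped in both pairs. In the p38+/+ pair only AD p38+/+ mouse 4 and WT p38+/+ mouse 3 crossed, and without p38α only AD p38KO mouse 4 lay above any WT p38KO mouse. Over both p38 genotypes the log2 fold change was -0.56 (95% interval -0.90 to -0.21, limma, adjusted p = 0.151), and it passed only when AD p38KO mouse 4 was left out (-0.66, adjusted p = 0.0265), where 1 of 42 members was called. Without mice 1 and 4 together it did not (adjusted p = 0.0583). Mouse 4 held the highest Tab2 value of the AD p38KO mice. Leaving it out lowers the AD mean, so the pass without it is no evidence of a fall.

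Traf6 was 56.5, 75.6, 57.0 and 55.5 CPM in AD p38KO, against 46.2, 69.4, 63.3 and 51.6 CPM in AD p38+/+ mice, and 52.6, 51.6, 65.6 and 63.7 CPM in WT p38KO, against 61.7, 75.8, 62.3 and 53.7 CPM in WT p38+/+ mice, with log2 fold changes under the knockout of 0.09 in AD and -0.11 in WT mice. Gadd45g, a stress-induced protein that binds MEKK4, was 3.99, 7.80, 5.54 and 5.30 CPM in WT p38KO, against 3.48, 8.28, 2.20 and 1.61 CPM in WT p38+/+ mice, where mouse 2 alone was high. In AD mice it was 5.86, 6.61, 4.504 and 6.63 CPM in p38KO, against 3.55, 4.69, 5.35 and 5.18 CPM in p38+/+, and neither difference passed (limma, adjusted p = 0.931 in AD and 1.0 in WT mice). The remaining adaptor genes, Tab1, Tab3 and Gadd45a, had unadjusted p-values of 0.0604 (limma) or more in all 7 comparisons.

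The kinases downstream of p38α include some of the members measured most precisely. Mapkapk2 encodes MK2, the kinase through which p38α acts on AU-rich messenger RNAs. It was 169, 181, 165 and 149 CPM in AD p38KO, against 163, 175, 162 and 157 CPM in AD p38+/+ mice, and 158, 155, 169 and 134 CPM in WT p38KO, against 102, 170.1, 145 and 141 CPM in WT p38+/+ mice, with WT p38+/+ mouse 1 the lowest of all. The 95% interval of its knockout effect was -0.26 to 0.28 (log2) in AD mice and -0.11 to 0.43 in WT mice. Mknk1, which encodes the eIF4E kinase MNK1, was 248, 208, 189 and 196 CPM in AD p38KO, against 188, 224, 207 and 195 CPM in AD p38+/+ mice, and 204, 210.3, 221 and 211 CPM in WT p38KO, against 191, 265, 203 and 192 CPM in WT p38+/+ mice. Its intervals were -0.20 to 0.28 in AD and -0.23 to 0.24 in WT mice, among the narrowest of all members. None of the 7 downstream kinases had an unadjusted p under 0.05 for the knockout in either background.

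Rps6ka5 encodes MSK1, which phosphorylates CREB1 and histone H3. It was 29.6, 27.1, 31.8 and 25.2 CPM in AD p38KO mice, against 39.9, 37.6, 34.2 and 35.0 CPM in WT p38KO mice, without overlap (log2 fold change -0.36, limma, adjusted p = 0.435). Without AD p38KO mice 1 and 4 it was -0.31 (limma, adjusted p = 0.798). In p38+/+ mice it was 23.7, 33.2, 27.0 and 29.4 CPM in AD p38+/+, against 40.2, 31.1, 37.3 and 29.4 CPM in WT p38+/+ (log2 fold change -0.28, limma, adjusted p = 0.760). It was the only member of 42 without overlap in the first of these pairs (4.93% of all genes), and 0 of 42 were without overlap in the second (5.23% of all genes). Over both genotypes the log2 fold change was -0.32 (limma, adjusted p = 0.196). With the knockout it was 0.01 in AD and 0.09 in WT mice.

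Creb1, a transcription factor that MSK1 phosphorylates, was lower in mean in AD mice too. It was 71.3, 100.7, 91.6 and 52.4 CPM in AD p38KO mice, against 97.6, 126, 113 and 103 CPM in WT p38KO mice (log2 fold change -0.51, limma, adjusted p = 0.459), and without AD p38KO mice 1 and 4 the fold change was -0.18 (adjusted p = 0.936). In p38+/+ mice it was 63.2, 83.6, 88.9 and 67.9 CPM in AD p38+/+, against 142, 93.7, 111.8 and 67.8 CPM in WT p38+/+, where the WT p38+/+ mice alone spanned more than the difference between the means. Over both genotypes the log2 fold change was -0.46 (limma, adjusted p = 0.202), and over the alternatives tried it lay between -0.55 and -0.30, the last of these without AD p38KO mice 1 and 4 (adjusted p = 0.452). As everywhere in these bulk libraries, fewer cells with the transcript and less of it per cell cannot be told apart.

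**Figure D4:**
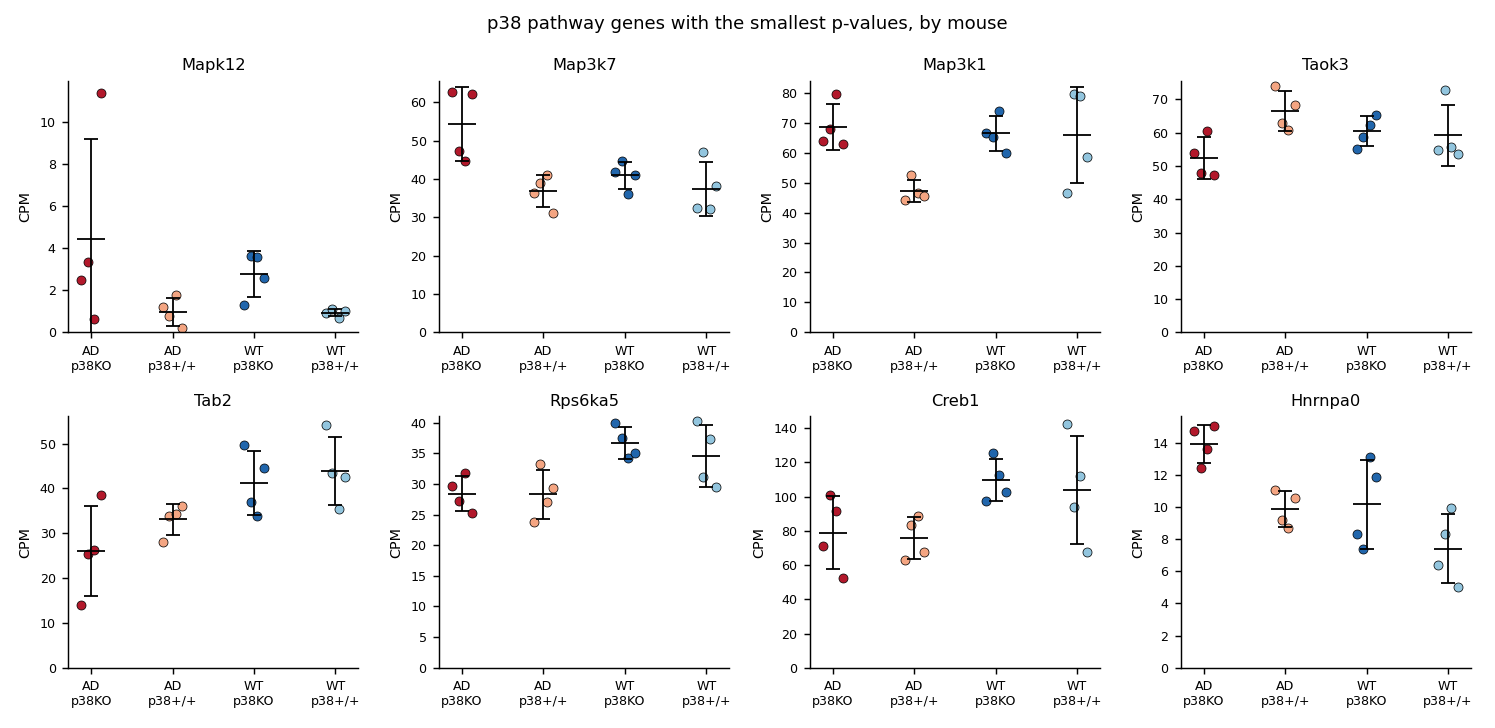
CPM of 8 members in each mouse, chosen for small p-values. Points are mice, long dashes are means of 4 and bars are SD, with those of Mapk12 reaching below the axis. Map3k7 and Map3k1 lie higher in AD p38KO than in AD p38+/+ mice, Tab2, Rps6ka5 and Creb1 have lower means in both AD groups than in the WT groups, and 0 of the 8 passed after adjustment.

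Atf2, a direct substrate of p38 kinases, was 85.4, 74.1, 103 and 92.9 CPM in WT p38KO mice, against 78.8, 68.9, 74.4 and 72.0 CPM in WT p38+/+ mice (log2 fold change 0.26, 95% interval -0.0046 to 0.53, limma, adjusted p = 1.0). It was 69.4, 72.3, 80.5 and 96.6 CPM in AD p38KO, against 69.6, 72.3, 85.6 and 81.4 CPM in AD p38+/+ mice, a log2 fold change of 0.04. Trp53, which encodes p53, was 60.1, 74.4, 87.8 and 67.9 CPM in AD p38KO, against 80.3, 80.3, 79.0 and 91.4 CPM in AD p38+/+ mice, and 83.9, 74.5, 90.7 and 74.3 CPM in WT p38KO, against 70.4, 86.2, 59.1 and 68.5 CPM in WT p38+/+ mice. Its log2 fold change with the knockout was -0.20 in AD and 0.19 in WT mice, and the interaction, -0.39, had an unadjusted p of 0.0539 (limma, adjusted p = 1.0).

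Of the RNA-binding proteins, Hnrnpa0, a substrate of MK2, had its highest mean in AD p38KO mice. It was 14.7, 12.4, 13.6 and 15.02 CPM in AD p38KO mice, against 11.04, 9.17, 8.72 and 10.6 CPM in AD p38+/+ mice, without overlap (log2 fold change 0.48, limma, adjusted p = 0.736), and without AD p38KO mice 1 and 4 the fold change was 0.38 (adjusted p = 0.975). In WT mice it was 8.30, 7.37, 13.1 and 11.9 CPM in p38KO, against 6.38, 8.34, 9.94 and 5.01 CPM in p38+/+ (log2 fold change 0.43, limma, adjusted p = 1.0). Its log2 fold changes over both backgrounds were 0.46 for the knockout and 0.45 for the transgenes (limma, adjusted p = 0.747 and 0.276). Zfp36l2 was 330.4, 467, 457 and 317 CPM in AD p38KO, against 319.6, 413, 348 and 431 CPM in AD p38+/+ mice, and 498, 342, 476 and 349.7 CPM in WT p38KO, against 399, 474, 414 and 282 CPM in WT p38+/+ mice. Elavl1 was 177, 155, 183 and 185 CPM in AD p38KO, against 158, 138, 159.8 and 189.7 CPM in AD p38+/+ mice, and 175, 188, 193 and 151 CPM in WT p38KO, against 178, 145, 189.7 and 143 CPM in WT p38+/+ mice. The groups of both genes overlapped, and neither had an unadjusted p under 0.05 in any of the 7 comparisons.

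The phosphatases, which remove phosphate from p38 kinases, all had fold changes below 0 in AD p38KO over AD p38+/+ mice, where 46.2% of all genes lay above 0. None of them had an unadjusted p under 0.05. Their log2 fold changes were -1.21 for Dusp8, -0.83 for Dusp10, -0.49 for Dusp16 and -0.20 for Ppm1d, which encodes WIP1, and in WT mice -0.16, -0.22, -0.03 and 0.04 in the same order. Dusp16 was 20.6, 6.29, 9.94 and 5.35 CPM in AD p38KO, against 19.7, 14.96, 10.3 and 9.504 CPM in AD p38+/+ mice, so that mouse 1 alone was high in AD p38KO mice. With all mice the unadjusted p was 0.165 for Dusp16 and 0.129 for Dusp10 (limma, adjusted p = 0.824 and 0.795). Without AD p38KO mouse 1 the log2 fold change of Dusp16 was -0.86 (limma, unadjusted p = 0.00702, adjusted p = 0.498). That of Dusp10 without mice 1 and 4, its highest in the group at 3.08 and 3.11 CPM, was -1.68 (limma, unadjusted p = 0.00727, adjusted p = 0.715). Each exclusion took out the highest values, so these smaller p-values are no evidence of a fall. In WT mice Dusp16 was 11.1, 14.3, 12.4 and 17.0 CPM in p38KO, against 11.4, 17.5, 14.95 and 12.2 CPM in p38+/+, with overlap. Ppm1d was 29.5, 22.9, 29.8 and 22.5 CPM in AD p38KO, against 29.7, 27.3, 33.6 and 29.7 CPM in AD p38+/+ mice, and 35.6, 32.4, 36.0 and 23.7 CPM in WT p38KO, against 31.5, 30.8, 28.2 and 31.9 CPM in WT p38+/+ mice. Its groups overlapped in both backgrounds. Dusp8 was listed at 0 in AD p38KO mice 3 and 4, and Dusp10 in AD p38KO mouse 3.

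**Figure D5:**
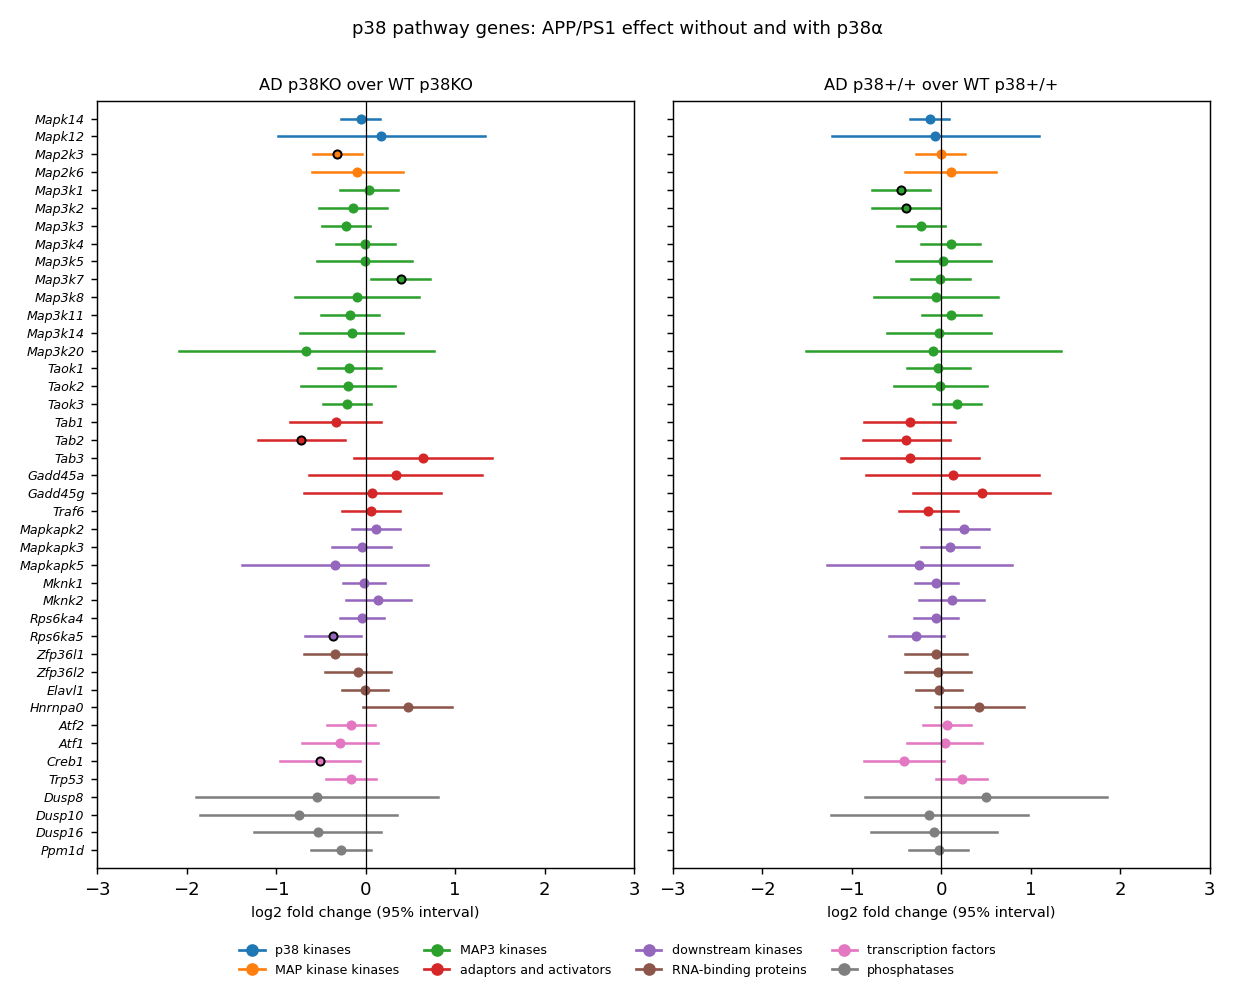
Log2 fold change of the 42 tested genes for AD p38KO over WT p38KO mice (left) and AD p38+/+ over WT p38+/+ mice (right), with 4 mice per group. Points, lines, colors and rims are as in the plot of knockout effects; the rims mark Tab2, Map3k7, Rps6ka5, Map2k3 and Creb1 on the left and Map3k1 and Map3k2 on the right, and 0 genes passed after adjustment.

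Some libraries held the top value of their group for many members, most of all WT p38+/+ mouse 2 and WT p38KO mouse 3. WT p38+/+ mouse 2 held the highest value of its group for 29 of the 42 tested members (69.0%, against 35.7% of all genes tested) and the highest of all 16 libraries for 14. WT p38KO mouse 3 held the highest value of its group for 19 (45.2%, against 25.1% of all genes). The SD of log2 values was largest in WT p38+/+ mice for 21 members (50.0%, against 31.4% of all genes) and in AD p38KO mice for 18 (42.9%, against 48.9%). Without WT p38+/+ mouse 2, 0 of 42 members were called in any of the 7 comparisons (limma). Then 5 instead of 0 had an unadjusted p under 0.05 in WT p38KO against WT p38+/+ mice (11.9%, against 4.25% of all genes), and the members' median log2 fold change there was 0.12 instead of 0.04, against 0.03 for all genes without the mouse. In AD p38+/+ over WT p38+/+ mice the members' median was 0.05 without the mouse and -0.03 with it, against 0.02 for all genes without it. The mouse was singled out by the members' own high values in it. Leaving it out therefore lifts their fold changes over WT p38+/+ mice, so these values test neither the knockout nor the transgenes.

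Genes of the pathway outside the 44 were read from a further list of 58 genes, of which 57 were in the table and 52 tested. For the knockout 0 of 52 were called in either direction, in either background or over both, with 4 (7.69%, against 6.99% of all genes) at an unadjusted p under 0.05 in AD p38KO against AD p38+/+ mice and 2 (3.85%, against 3.53%) in WT p38KO against WT p38+/+ mice. The smallest p-values in AD mice belonged to phosphatases: Dusp1, which acts on p38 kinases, averaged 11.7 ± 4.18 CPM in AD p38KO and 38.9 ± 23.5 CPM in AD p38+/+ mice (± SD over 4 mice), and Dusp2 averaged 2.77 ± 1.62 and 0.759 ± 0.298 CPM (limma, adjusted p = 0.450 and 0.526). In WT mice they belonged to Khsrp, which binds AU-rich elements, and Cdc25b, a cell cycle phosphatase (limma, adjusted p = 1.0 for both). With the transgenes, 1 of 52 fell and 0 rose over both genotypes (1.92%, against 1.03% of all genes called). This was Mef2a, a transcription factor that p38 kinases phosphorylate, with a log2 fold change of -0.31 (limma, adjusted p = 0.0109). It averaged 719.5 ± 61.5 CPM in AD p38KO and 877 ± 24.4 CPM in WT p38KO mice, and 711 ± 31.8 CPM in AD p38+/+ and 894 ± 93.7 CPM in WT p38+/+ mice (± SD over 4 mice). In AD p38+/+ against WT p38+/+ mice the next gene by p was Cdc25b (log2 fold change 1.84, limma, adjusted p = 0.323).

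Messenger RNAs whose stability or transcription p38 signaling is known to raise were read from a list of 12, of which 9 were in the table and 7 tested. With the knockout 0 of 7 were called in AD mice, in WT mice or over both (0.0503%, 0.00719% and 0.0791% of all genes). At an unadjusted p under 0.05 there were also 0 in each (6.99%, 3.53% and 5.9% of all genes). With 7 genes, 0 cannot be told apart from these shares. Tnf averaged 1.48 ± 0.769 CPM in AD p38KO and 4.09 ± 1.71 CPM in AD p38+/+ mice, and Il1b 2.85 ± 1.27 and 5.39 ± 2.44 CPM (SD, n = 4 each, limma, adjusted p = 0.780 for both). In WT mice the means lay the other way, with Tnf at 6.17 ± 7.001 CPM in WT p38KO and 2.81 ± 2.20 CPM in WT p38+/+ mice, and Il1b at 2.22 ± 1.97 and 1.24 ± 0.861 CPM (SD, n = 4 each, limma, adjusted p = 1.0 for both). WT p38KO mouse 2 alone was high, with Tnf at 16.4 CPM against 1.15 to 4.94 CPM in the others of its group. Its Il1b was 5.13 CPM, against 0.860 to 1.65 CPM in the others. The interactions, with that mouse included, had unadjusted p-values of 0.0519 for Tnf and 0.0593 for Il1b (limma, adjusted p = 1.0 for both). With the transgenes 2 of 7 (28.6%) rose in each p38 genotype, the chemokine genes Ccl3 and Ccl4. Of all genes, 0.323% were called in AD p38KO against WT p38KO mice and 0.359% in AD p38+/+ against WT p38+/+ mice. Ccl3 was 129, 51.8, 45.8 and 50.4 CPM in AD p38KO mice, against 3.58, 21.7, 10.9 and 13.97 CPM in WT p38KO mice (log2 fold change 2.51, limma, adjusted p = 0.0435). In p38+/+ mice it was 142, 65.4, 61.3 and 28.9 CPM in AD p38+/+, against 6.38, 21.5, 7.59 and 11.1 CPM in WT p38+/+ (log2 fold change 2.56, limma, adjusted p = 0.0378). Every AD mouse lay above every WT mouse of the same p38 genotype, and Ccl4 gave log2 fold changes of 2.11 and 2.02 (limma, adjusted p = 0.0294 and 0.0347) in the same pairs.

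Reads shared between overlapping genes limit some of these values. The annotation places exons of another gene over exons of 13 members, among those described above Map3k11 (Pcnx3 on the other strand), Elavl1 (Ccl25 on the other strand), Mknk1, Rps6ka5, Zfp36l2 and Atf2. Whether the counting used strand is not stated, so reads of these pairs cannot be told apart here.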

How the data were processed

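CD11b+/P2ry12+ microglia were sorted from 16 mice, 4 per group (11 libraries labelled male and 5 female), and RNA libraries were made with the NEBNext Ultra II kit. Samples were grouped by their labels. Per the study's methods and processing notes, the authors aligned reads to mm10 with STAR and quantified Ensembl release 100 transcripts in Partek Flow 10.0.22.0828. The authors deposited CPM with 0.0001 added, for genes and for transcripts, and that offset was subtracted here. The low CPM values came out as whole reads for 75.9% to 81.6% of values (tolerance 0.05 reads), too few for a count test, so the depth is an estimate.

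Features that reached 1 CPM in 4 or more libraries were fitted with limma 3.58.1 (R 4.3.3, limma-trend) on log2(CPM + 0.5) over all 16 libraries with group as the only term. P-values are two-sided and Benjamini-Hochberg adjusted over all 13912 genes or 34322 transcripts, and a gene was called at an adjusted p under 0.05. Fold changes on this scale understate the change of low genes. Single values were compared by an exact permutation test of 4 against 4 mice, by full enumeration in Python 3.11.15. The study's own test was made for read counts, which CPM are not. The code was tested on simulated data. The annotation and sequences come from GENCODE M21 (GRCm38). The members and lists were chosen with earlier results of these data known. Described by mouse were Mapk14 and its transcripts of at least 1 CPM, the 3 members with the smallest p in each comparison and the 2 with the highest CPM in each role, and others were given by their fold changes or ranges. Of the other pathway genes, the 2 with the smallest p in each pairwise comparison were named, with the call over both genotypes, except for a result that is not reported here. The alternatives changed the CPM added before the log, the filter, the scaling, sample weights, terms for sex, library label and replicate number, and the libraries included.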

Additional observations from a re-analysis of the deposited data

Results flagged for a closer look

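Each described gene was checked in each group of 4 mice, and 4 such groups, or 3.45% of those checked, had 1 mouse far from the other 3, where chance alone gives about 5%. Taok3 was 72.8 CPM in WT p38+/+ mouse 2, against 53.5 to 55.7 CPM in the other WT p38+/+ mice. Mknk1 was 265.1 CPM in that same mouse, against 191 to 203 CPM in the others of its group. Traf6 was 75.6 CPM in AD p38KO mouse 2, against 55.5 to 57.0 CPM in the other AD p38KO mice. Trp53 was 91.4 CPM in AD p38+/+ mouse 4, against 79.0 to 80.3 CPM in the other AD p38+/+ mice.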

How the results depend on the processing

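The count of 0 called p38 pathway genes held under every alternative run in 6 of the 7 gene comparisons, and in AD against WT over both p38 genotypes it was 0 to 1 when each library was left out in turn, the 1 being Tab2 without AD p38KO mouse 4. The count of called transcripts in AD p38KO against AD p38+/+ mice was 2 under all alternatives. In WT p38KO against WT p38+/+ mice it was 1, and 2 with array weights, with sex as a term, with the replicate block or without AD p38KO mice 1 and 4, and 1 to 3 when each library was left out. For the knockout over both backgrounds it was 4, and 2 with the replicate block together with sex, and 2 to 4 when each library was left out. The ENSMUST00000004990 call passed under 10 of 28 alternatives and that of ENSMUST00000114754 under 20 of 27. The fitted fold of ENSMUST00000062694 lay between -8.24 and -5.89 in AD mice over the settings that add a constant to the CPM. No value reversed a called direction. The cause of these shifts was not tested.

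Whether the replicate numbers pair the mice is not settled by these values, and mouse 1 of every group was labelled female. Deviations of same-numbered libraries correlated at -0.131 to 0.184 (24 pairs, median -0.011). Those of differently numbered libraries correlated at -0.148 to 0.212 (72 pairs, median -0.0022). Yet 9 of 16 libraries correlated best with a library of their own number, more than the share of same-numbered pairs would give. The replicate block changed no call of a member gene. It gave 2 called member transcripts in WT p38KO against WT p38+/+ mice and, with sex, 2 for the knockout over both backgrounds. The filter of 5 CPM left Mapk12 and ENSMUST00000114754 untested, and a fit of only the groups compared gives no value over both backgrounds. Depth of 12.3 to 16.4 reads per CPM limits Mapk11, Mapk13, Dusp8 and Mapk12, whose values rest on few reads.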
